A study of Mus musculus with 12 samples.

Results

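Ribosome footprints were counted on the mRNAs of 10 enzymes of purine nucleotide synthesis and salvage in mouse embryonic stem cells. The members were taken by symbol from the count tables, and 10 of 10 symbols were found among the 22034 symbols of the footprint table and among the 49997 of the RNA table. They were Ppat, Gart, Pfas, Paics, Adsl and Atic, which encode the enzymes of the route to inosine monophosphate (IMP), the branch enzymes Impdh1, Impdh2 and Gmps, and the salvage enzyme Hprt. The set was selected on the genotype difference in footprint response, in which Atic stood out, so footprint values of the members are given as a description and no p-value is printed for them. The RNA libraries played no part in that choice and were tested.

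The cells were of the line ES-E14TG2a, and in every group the release factor eRF1, which recognises stop codons and ends translation, carried a dTAG degron. The compound dTAG-13 links proteins with this tag to a ubiquitin ligase, after which they are degraded. The 4 footprint groups were wild-type cells left untreated, wild-type cells given 500 nM dTAG-13 for 1 h, Gcn2 knockout cells left untreated, and Gcn2 knockout cells given the same dose for the same time. Poly(A) RNA was sequenced in untreated and treated wild-type cells. Each group had 2 biological replicates, A and B, which made 12 libraries. Eif2ak4 encodes Gcn2, which senses stalled ribosomes and lack of amino acids and then phosphorylates eIF2 to lower initiation. "Wild type" here means with Gcn2 and with the tagged eRF1. Neither a vehicle control, nor treated cells without the tag, nor RNA of knockout cells was analysed here, so effects of the compound and of eRF1 loss cannot be told apart, and footprint and RNA changes could be set side by side in wild-type cells only. Whether the knockout is 1 clone or several was not given in the sources used here.

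Purine nucleotides supply DNA, RNA, ATP and GTP. In the de novo route the ring is built step by step on phosphoribosyl pyrophosphate, with glycine, glutamine, aspartate, bicarbonate and formyl groups carried by folate as donors, and ends in IMP, from which AMP and GMP branch off. Rapidly dividing cells such as embryonic stem cells rely on it heavily, while salvage enzymes such as HPRT return free bases to the nucleotide pool. Ppat encodes the amidotransferase of the first committed step, Gart a trifunctional enzyme of early steps, Pfas the amidotransferase that follows, Paics a bifunctional carboxylase and ligase, and Adsl the lyase that acts in the route and again in AMP formation. Atic encodes the bifunctional enzyme that adds the last formyl group and closes the ring.

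RefSeq upstream sequences (assembly GRCm38.p6) were matched for 9 of 10 members, in 10 windows of 250 bases, since Impdh1 had 2 starts. They were searched for CACGTG, the palindromic E-box known to be bound by MYC and related factors, and for TGATGNAA, the core of the composite site of ATF4 and C/EBP proteins, on both strands. CACGTG was in 3 of the 10 windows, against 6.02% of 32851 windows of all genes. Those of Atic, Paics and Impdh2 held it, at 7, 203 and 110 bases before the start. TGATGNAA was in 0 of the 10, against 3.45% of all windows, which says only that these letters are not in these windows. Atic is printed as the member whose footprint response differed by genotype, and Impdh2 as a member with the same E-box and no called change. Both lie on the plus strand, run 5′ to 3′ and end at the base before the start. Capitals mark the E-box, a match of letters and not a measured site. The windows are chr1:71556906-71557155 for Atic and chr9:108560186-108560435 for Impdh2.
Atic: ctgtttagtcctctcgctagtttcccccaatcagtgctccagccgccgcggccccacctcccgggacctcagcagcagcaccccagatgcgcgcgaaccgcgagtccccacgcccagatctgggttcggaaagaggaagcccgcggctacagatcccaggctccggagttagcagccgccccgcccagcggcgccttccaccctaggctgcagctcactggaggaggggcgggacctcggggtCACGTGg
Impdh2: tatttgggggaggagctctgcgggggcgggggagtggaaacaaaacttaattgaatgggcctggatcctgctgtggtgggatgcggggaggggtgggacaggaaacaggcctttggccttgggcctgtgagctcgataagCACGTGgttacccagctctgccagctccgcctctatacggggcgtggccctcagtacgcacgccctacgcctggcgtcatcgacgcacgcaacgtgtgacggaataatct

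Footprint libraries held between 7874804 (treated wild type A) and 19691716 counts, and RNA libraries between 17462458 and 24256097. In each group A and B disagreed beyond counting error (chi-squared per degree of freedom 2.88 to 25.2). Values are in CPM, counts scaled to a common library total with TMM factors. Footprints on Eif2ak4 were at 27.7 to 34.0 CPM in the 4 wild-type libraries and 2.33 to 5.36 CPM in the 4 knockout libraries. The 8 stem cell markers summed to 8803 to 9619 footprint CPM per library and 6 fibroblast markers to 7.14 to 14.2. The 6 primed or early differentiation markers summed to 63.1 to 89.8 CPM and the 4 two-cell-like markers to 0.05 to 0.688 CPM. Pou5f1, a defining stem cell gene, had 1048 to 1395 CPM in footprints but 4.89 to 6.88 CPM in RNA. The level of the Etf1 mRNA does not measure loss of the eRF1 protein.

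Atic was the member whose response differed most between the genotypes. In wild-type cells it had 222 (A) and 250.7 (B) footprint CPM untreated and 280.8 (A) and 280.9 (B) CPM treated. In knockout cells it had 233.6 (A) and 264.5 (B) CPM untreated and 139.2 (A) and 126.2 (B) CPM treated. Both treated knockout libraries thus lay below the other 6, which spanned 222 to 280.9 CPM. The group means were 236.4 ± 20.3 and 280.8 ± 0.0707 CPM in wild-type cells and 249.0 ± 21.9 and 132.7 ± 9.19 CPM in knockout cells (mean ± SD, n = 2, untreated and treated). These rest on 1618 to 4538 Atic footprints per library. The 6 primitive endoderm markers separated the same libraries, with summed footprints of 5.33 to 6.53 CPM in treated knockout cells and 7.345 to 10.04 CPM in the other 6 libraries, and 0 of the 6 genes were at 0 in treated knockout cells. Over all footprint libraries Dab2 had 2.666 to 5.596 CPM, Gata4 1.118 to 3.795 CPM, and each of the other markers at most 1.119 CPM. The part of these markers in the Atic result was not tested. In bulk libraries fewer cells with a transcript and less of it per cell cannot be told apart.

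**Figure D1:**
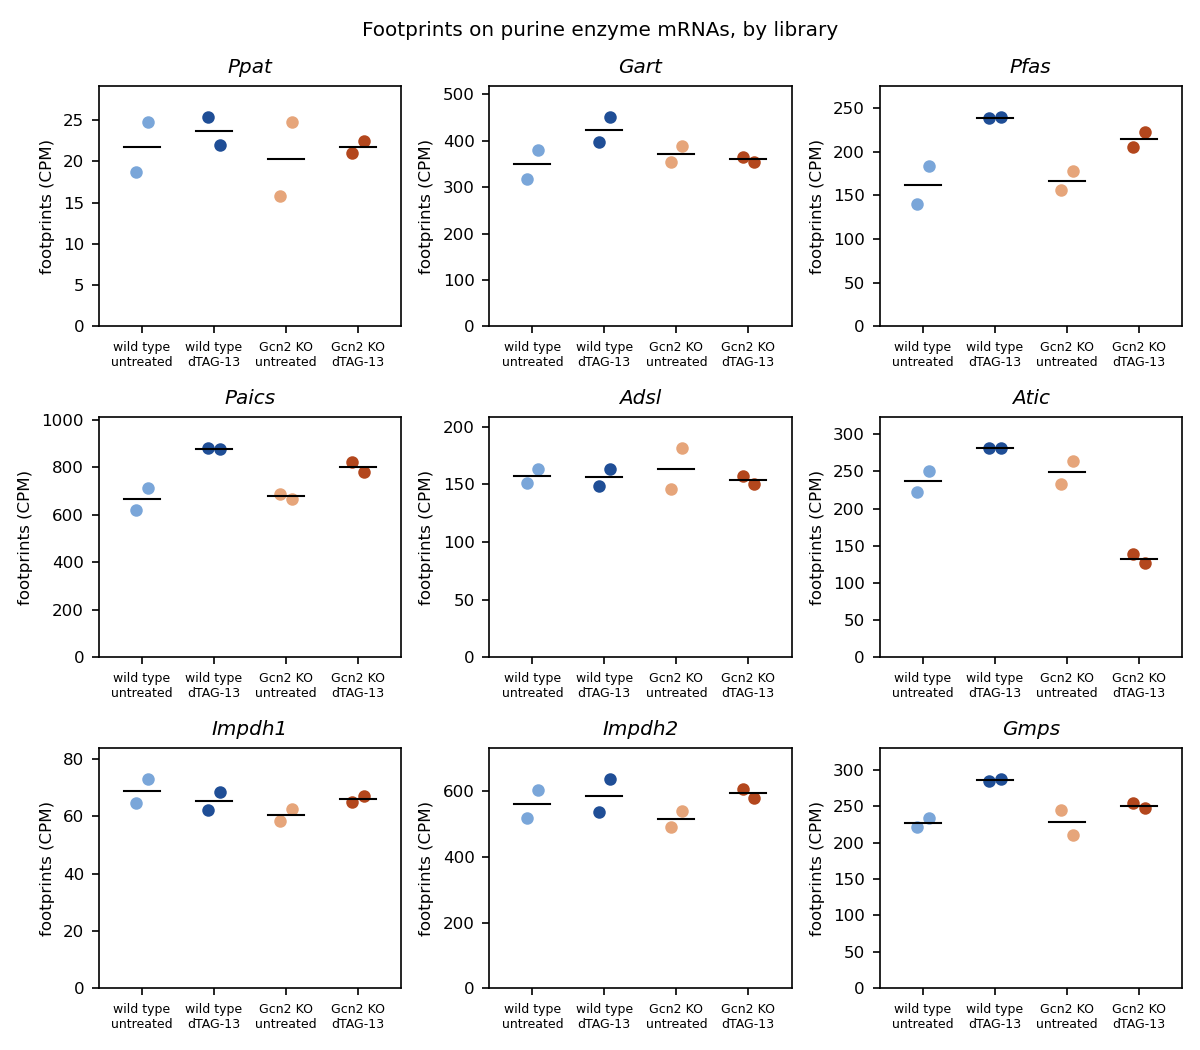
Footprint CPM (y axis, from 0) of the 9 members above the filter in each of the 8 footprint libraries, by group (x axis); points are libraries (A left, B right) and lines are group means. Atic is lowest in the 2 treated knockout libraries, at 139.2 and 126.2 CPM, and the treated wild-type points of Pfas, Paics, Atic, Gart and Gmps lie above the untreated ones.

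On the log2 scale, Atic footprints fell in the knockout by 0.91 (SE 0.118), a 1.88-fold fall, and the wild-type change was 0.25 (SE 0.117). The knockout change less the wild-type change was −1.16 (SE 0.166), rank 101 from the lowest of 12267 genes. Untreated knockout and wild-type cells differed by 0.08 (SE 0.117), and their libraries overlapped, while treated knockout cells were 2.12-fold below treated wild-type cells (−1.08, SE 0.119). The genotype difference is the contrast on which the set was chosen. It no longer passed the threshold without any single knockout library, without untreated wild-type library A or without treated wild-type library A, although its size stayed between −1.07 and −1.27 when each library was left out in turn.

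A gene was called when its adjusted p in the edgeR quasi-likelihood test, with Benjamini-Hochberg adjustment over all genes tested, was under 0.05. The genotype difference chose the set, so its count of 1 of 9 members past this threshold (Atic, lower) is a description from which nothing is read. Over all genes 0.0489% were called in that comparison and 0.0326% were called lower. The treated comparison of genotypes uses 4 of the same libraries, and the member past the threshold there was also Atic, at 3.78% of all genes called and 1.92% called lower. Between untreated genotypes 0 of 9 members were called (0.00815% of all genes). At an unadjusted p under 0.05 there were 0 members and 733 of the 12267 genes tested, and DESeq2 called 0 members and 31 genes. The untreated differences of the 9 members lay between −0.19 and 0.09.

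Atic was then set against the other enzymes of the route to IMP within each library, which removes any factor common to all 6. Of the raw footprint counts on these 6 enzymes, Atic held 15.1% (A; exact Clopper-Pearson 95% interval 14.7 to 15.5) and 14.6% (B; 14.2 to 15.0) in untreated wild-type cells. It held 14.2% (A; 13.7 to 14.8) and 13.8% (B; 13.4 to 14.2) in treated ones. In untreated knockout cells the shares were 14.7% (A; 14.2 to 15.1) and 15.5% (B; 15.1 to 15.9). With dTAG-13 they were 8.13% (A; 7.76 to 8.52) and 7.62% (B; 7.29 to 7.96). The intervals cover counting error only. These shares come from the footprint libraries on which the set was chosen, so they are a description and not separate evidence. A share also moves with the counts on the other enzymes. The 2 treated knockout libraries stood apart from the 6 others, whose shares spanned 13.8% to 15.5%. In wild-type RNA, Atic held 20.7% (A) and 20.1% (B) of the counts on the 6 genes untreated and 19.7% in each treated library.

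**Figure D2:**
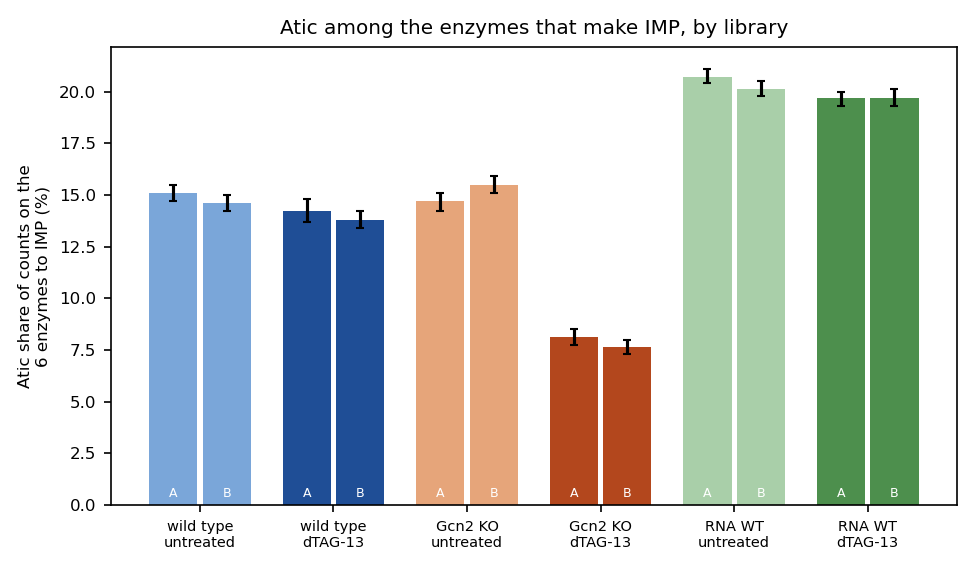
Share of counts on the 6 enzymes to IMP that fell on Atic (y axis, percent, from 0), for each library (x axis, letters A and B); error bars are exact 95% binomial intervals, which cover counting error only. The treated knockout footprint libraries are at 8.13% and 7.62%, and the other 6 footprint libraries at 13.8% to 15.5%.

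None of the 5 enzymes before Atic in the route was called lower in the knockout, against 5.71% of all genes, so little is read from this count. Ppat, the entry enzyme, had 18.69 (A) and 24.78 (B) CPM in untreated and 25.35 (A) and 21.94 (B) CPM in treated wild-type cells, and 15.83 (A), 24.77 (B), 20.98 (A) and 22.47 (B) CPM in untreated and treated knockout cells. Groups overlapped in both genotypes, and with 191 to 444 footprints per library Ppat was the tested member with the fewest counts. Its log2 changes were 0.12 (SE 0.212) in wild-type and 0.10 (SE 0.210) in knockout cells. Its annotated span overlaps that of Paics by 277 bases on chromosome 5, where both genes start head to head. Whether strand was used in counting was not given in the sources used here.

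Gart, the trifunctional enzyme, had 317.5 (A) and 381 (B) CPM in untreated and 397.2 (A) and 450.5 (B) CPM in treated wild-type cells. In the knockout it had 353.8 (A) and 389.3 (B) CPM untreated and 364.9 (A) and 355.1 (B) CPM treated. The wild-type groups did not overlap and the knockout groups did. Its log2 changes were 0.28 (SE 0.125) and −0.05 (SE 0.125), and their difference of −0.33 (SE 0.176) was, after that of Atic, the next lowest among the members and was not called.

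Pfas footprints rose in wild-type cells, the 1 call among the 9 members there, which was higher. They went from 140.5 (A) and 184 (B) to 238.9 (A) and 239.4 (B) CPM, a 1.47-fold rise (log2 change 0.56, SE 0.136). In the knockout they went from 155.7 (A) and 177.8 (B) to 205.5 (A) and 223 (B) CPM (log2 change 0.36, SE 0.136), which was not called. Treated libraries were above untreated ones in both genotypes. The wild-type call was lost without untreated wild-type A, either treated wild-type library or either treated knockout library, and with the 4 wild-type libraries fitted alone, and the change was 0.38 without untreated A and 0.77 without untreated B. The difference between genotypes was −0.20 (SE 0.192).

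Paics had 621.4 (A) and 713.7 (B) CPM in untreated and 880.2 (A) and 878.5 (B) CPM in treated wild-type cells. Knockout values were 689.5 (A) and 668.1 (B) CPM untreated and 823.4 (A) and 779.8 (B) CPM treated. The treated libraries were the higher ones in each genotype, by 0.40 (SE 0.117) and 0.24 (SE 0.116) on the log2 scale. Neither was called. Adsl, by contrast, had overlapping groups in both genotypes, with all 8 libraries between 145.9 and 181.3 CPM and log2 changes of −0.01 (SE 0.126) and −0.09 (SE 0.126).

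At the branch from IMP, Gmps, the GMP synthetase, went from 221.1 (A) and 233.6 (B) to 284.4 (A) and 286.7 (B) CPM in wild-type cells. In the knockout it went from 244.9 (A) and 210.8 (B) to 254.1 (A) and 247.3 (B) CPM. Groups did not overlap in either genotype. The log2 changes were 0.33 (SE 0.112) and 0.14 (SE 0.112), neither of them called.

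Impdh1 and Impdh2 encode the 2 IMP dehydrogenases, which make the precursor of GMP at the rate-limiting step of that branch. Impdh1 had 64.8 (A) and 72.88 (B) CPM in untreated wild-type cells, 62.11 (A) and 68.32 (B) CPM in treated ones, 58.35 (A) and 62.6 (B) CPM in untreated knockout cells and 65.02 (A) and 66.99 (B) CPM in treated ones. Impdh2 had, in the same order, 520.2 (A), 602.9 (B), 536.5 (A), 636.8 (B), 491.9 (A), 539.6 (B), 608.2 (A) and 580.9 (B) CPM. For both genes the wild-type groups overlapped and the treated knockout libraries were above the untreated ones. The log2 changes in wild-type and knockout cells were −0.08 (SE 0.121) and 0.13 (SE 0.121) for Impdh1, and 0.06 (SE 0.128) and 0.21 (SE 0.128) for Impdh2, with none called.

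**Figure D3:**
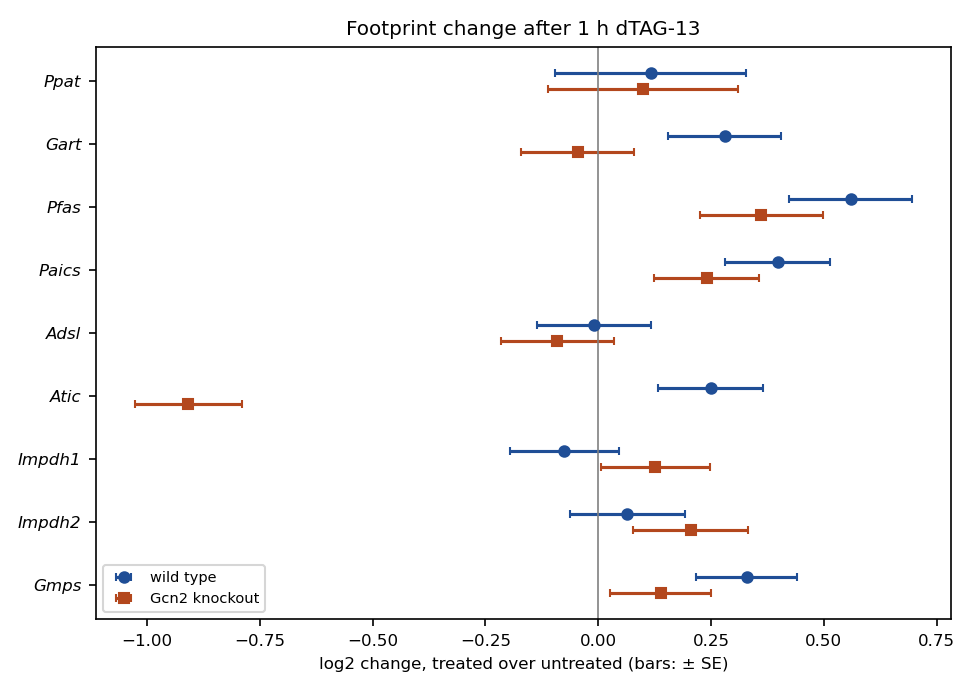
Log2 change in footprints with dTAG-13 (x axis, treated over untreated) of 9 members in wild-type (circles) and Gcn2 knockout cells (squares); bars are ± SE of the fit over 8 libraries. The knockout value of Atic, −0.91, lies apart from the other 17 values, which span −0.09 to 0.56.

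Over the set, 5 of 9 members (Gart, Pfas, Paics, Atic and Gmps) had both treated wild-type libraries above both untreated ones, as did 22.3% of all genes tested, and 0 had both below. Of the 9, 1 was called in wild-type cells, against 4.88% of all genes called and 2.94% called higher. Their median log2 change was 0.25 there, and −0.01 over all genes. It was 0.16 without untreated library A and 0.34 without untreated library B. In knockout cells 5 of 9 members (Pfas, Paics, Impdh1, Impdh2 and Gmps) had both treated libraries above both untreated ones, as did 32.5% of all genes, and 1 (Atic) had both below, as did 27%. The call there was 1 of 9, Atic, against 8.88% of all genes called and 5.71% called lower. The knockout median was 0.13, and 0.04 over all genes. It was 0.08 without untreated knockout A, 0.07 without treated knockout B and 0.18 without untreated knockout B. Between treated genotypes, both knockout libraries lay below both wild-type ones for 5 of 9 members (Gart, Pfas, Paics, Atic and Gmps) and for 27.2% of all genes. The median difference between genotypes was −0.16 over the 9 members, −0.12 over the 8 without Atic and 0.01 over all genes. It was −0.03 without untreated wild-type A, −0.10 without untreated knockout B, and as low as −0.23 without untreated wild-type B. The 2 treatment comparisons enter that difference, so these figures describe the same 8 libraries and are not separate evidence.

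The RNA comparison asked whether the transcripts themselves had changed by 1 h in wild-type cells. Of the 10 members 0 were called, against 0.163% of 15955 genes. By unadjusted p under 0.05, 0 members and 819 genes passed, and DESeq2 called 0 members. Without Hprt, the log2 changes of the 9 members lay between −0.06 and 0.08 with SEs of 0.0435 to 0.0709 (edgeR quasi-likelihood test, Benjamini-Hochberg adjusted p = 0.953 to 0.999).

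Atic RNA was at 451.3 (A) and 440 (B) CPM untreated and 428.8 (A) and 428.4 (B) CPM treated. Treated libraries were the lower ones, with a log2 change of −0.06 (SE 0.0445, edgeR adjusted p = 0.986). Pfas RNA was at 226.9 (A) and 245.7 (B) CPM untreated and 245.4 (A) and 231.4 (B) CPM treated, with overlapping groups and a change of 0.01 (SE 0.0493, edgeR adjusted p = 0.993). Paics RNA was at 568.9 (A) and 556 (B) against 561 (A) and 560.1 (B) CPM, a change of −0.005 (SE 0.0435, edgeR adjusted p = 0.999). For the wild-type gain in Pfas footprints there was thus no matching RNA gain at this precision.

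The remaining members also had near-equal RNA in both groups. Ppat was at 268.5 (A) and 269.1 (B) CPM untreated and 270 (A) and 281.3 (B) CPM treated. Gart was at 489 (A), 501.7 (B), 511.9 (A) and 497.9 (B) CPM in the same order, and Gmps at 186.3, 182.6, 183.8 and 193.9 CPM. Adsl, at 164.6 to 175 CPM over the 4 libraries, overlapped between groups. Impdh1 had the highest change among the 9, 0.08 (SE 0.0539, edgeR adjusted p = 0.953), from 139.6 (A) and 159 (B) to 156.7 (A) and 158.9 (B) CPM. Without untreated library B it was 0.18 and passed the threshold, and without untreated library A it was −0.01.

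**Figure D4:**
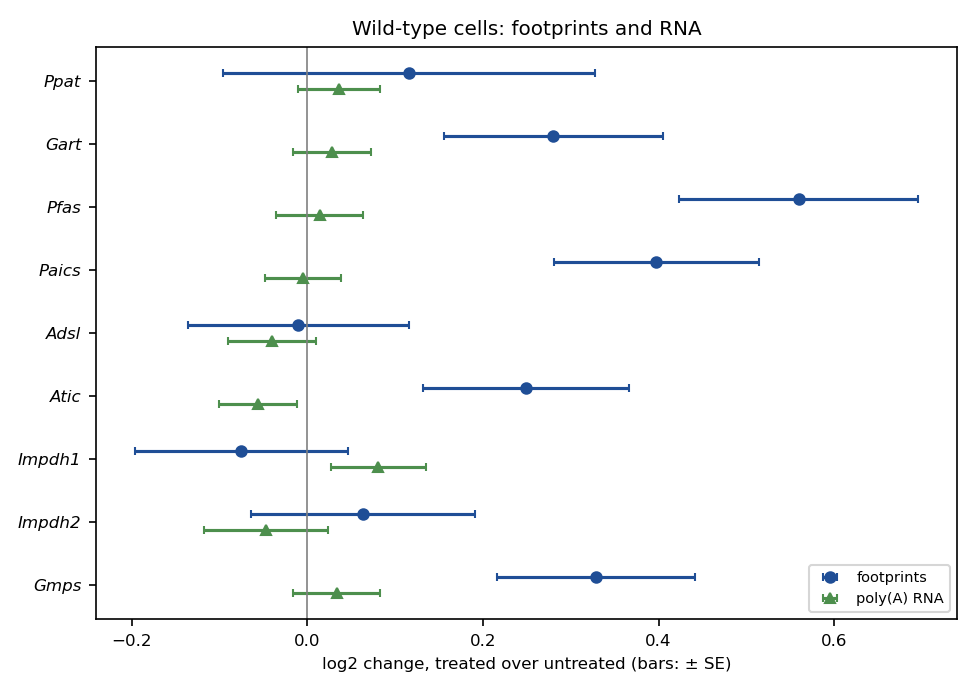
Log2 change with dTAG-13 in wild-type cells (x axis, treated over untreated) of footprints (circles) and poly(A) RNA (triangles) for 9 members; bars are ± SE. RNA values lie between −0.06 and 0.08, and footprint values between −0.08 and 0.56.

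Translational efficiency was the footprint change minus the RNA change in wild-type cells. Counts per gene hold no positions, so footprints at stop codons cannot be told from others, and protein output was not measured. A change common to all genes does not show in CPM. The value was 0.55 (SE 0.166) for Pfas, 0.40 (SE 0.132) for Paics, 0.30 (SE 0.125) for Atic, 0.29 (SE 0.114) for Gmps and 0.25 (SE 0.151) for Gart. Those of Impdh2, Ppat, Adsl and Impdh1 were 0.11, 0.07, 0.03 and −0.16. None of the 9 was called by edgeR, against 1.47% of 12887 genes, with 4 members and 1836 of all genes at an unadjusted p under 0.05, and 0 members called by DESeq2. With the replicate letter as a block Pfas, Paics and Atic were called, but so were 1561 of the 12887 genes, against 190 in the main fit. When each library was left out in turn, the value was 0.37 to 0.75 for Pfas and 0.31 to 0.50 for Paics. The members' median was 0.25, and 0.00 over all genes. It was 0.13 without untreated footprint library A.

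Hprt, which salvages hypoxanthine and guanine, was near 0 in every library. Its raw footprint counts were 1 (A) and 3 (B) in untreated and 2 (A) and 1 (B) in treated wild-type cells, and 1 (A), 2 (B), 0 (A) and 2 (B) in untreated and treated knockout cells. A count of 0 in treated knockout A allows up to 0.243 CPM (3 counts). All 8 libraries were at or under 3 counts, so Hprt did not pass the filter and no fold is given. In RNA it had 4 (A) and 9 (B) counts untreated and 11 (A) and 8 (B) treated, or 0.165, 0.410, 0.460 and 0.460 CPM, with a log2 change of 0.69 (SE 0.695, edgeR adjusted p = 0.993). ES-E14TG2a is known as a line selected for loss of HPRT by resistance to 6-thioguanine, with a deletion at the 5′ end of the gene. The gene lies on chromosome X from 52988078 to 53021660 in GRCm38.p6.

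For Impdh2 a pseudogene row was also examined in RNA, and such rows were not looked up for the other members. The Impdh2 row held 47.12 (A), 44.86 (B), 45.36 (A) and 43.56 (B) CPM in untreated and treated RNA. The row of its annotated pseudogene Impdh2-ps, present in the RNA table and absent from the footprint table, held 413.2 (A), 386.6 (B), 405 (A) and 399 (B) CPM. The pseudogene row thus took 89.6% to 90.2% of the counts on both rows in the 4 libraries. How reads shared by near-identical copies were assigned was not given in the sources used here, and which row they came from was not tested. With both rows added together, the log2 change was 0.00 (SE 0.0452, edgeR adjusted p = 0.999), and −0.05 (SE 0.0709, edgeR adjusted p = 0.993) for Impdh2 alone. Names of this kind were on 35 rows for footprints and on 1682 rows for RNA.

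**Figure D5:**
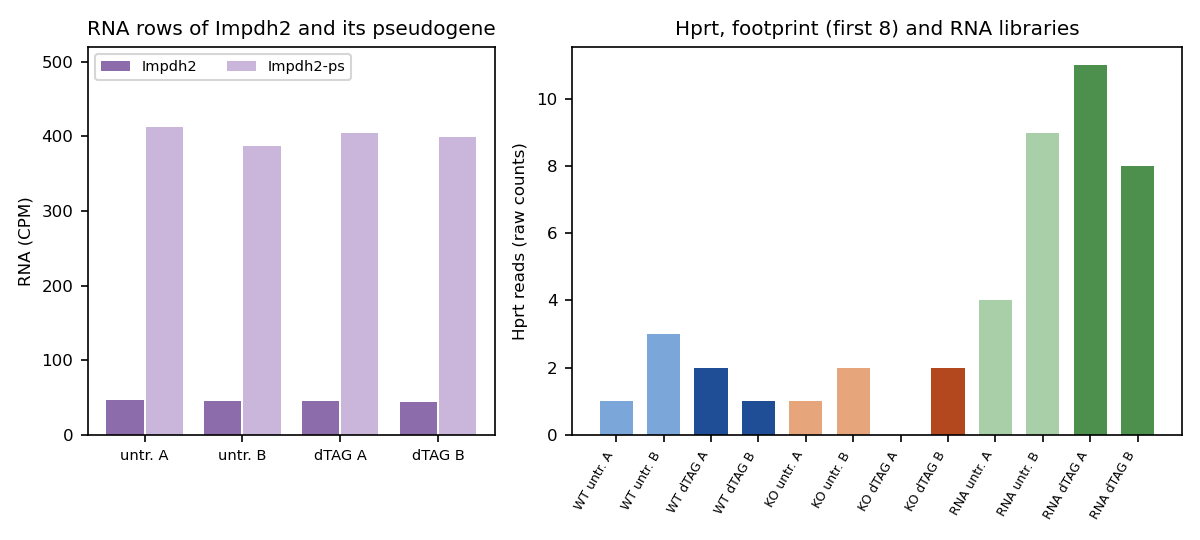
Left, RNA CPM (y axis, from 0) of Impdh2 and Impdh2-ps in the 4 RNA libraries; right, raw Hprt counts (y axis, from 0) in the 8 footprint and 4 RNA libraries. The pseudogene row is at 386.6 to 413.2 CPM and the Impdh2 row at 43.56 to 47.12 CPM, and Hprt has 0 to 3 footprints and 4 to 11 RNA reads.

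Other purine genes were described from a list of 28, of which 25 passed the filter in footprints. In wild-type cells 2 were called higher and 0 called lower. The 2 were Rrm1 (0.76, SE 0.171), the large subunit of ribonucleotide reductase, and Nt5c2 (0.55, SE 0.121), a nucleotidase that acts on IMP and GMP. The change of Rrm1 was 0.50, and no longer called, without untreated wild-type A. In the knockout 1 was called higher and 4 were called lower. Of all genes tested, 4.88% were called in wild-type cells, and in knockout cells 8.88% were called and 5.71% called lower, which holds beside the counts of the other lists too. Prps2, which makes the phosphoribosyl pyrophosphate on which the route starts, fell 2.78-fold (−1.47, SE 0.251), with a wild-type change of −0.22 (SE 0.243). Dck, a deoxynucleoside salvage kinase, fell 1.97-fold (−0.98, SE 0.121), and Itpa, which removes ITP, fell by 0.56 (SE 0.121). Their wild-type changes were −0.26 (SE 0.119) and 0.01 (SE 0.121). The nucleoside diphosphate kinases Nme1 (−0.78, SE 0.178) and Nme2 (0.91, SE 0.237) moved in opposite directions. In wild-type cells they moved the same ways, by −0.34 (SE 0.176) and 0.41 (SE 0.245), and were not called. Nme1 and Nme2 are near-identical neighbours, and how their shared reads were counted was not given in the sources used here. In treated cells Dck was lower in the knockout (−0.79, SE 0.122) and Guk1, the guanylate kinase, higher (0.57, SE 0.145). The list's median was 0.01 in wild-type and −0.15 in knockout cells, and −0.10 for the genotype difference. In that difference 0 of 25 were called by edgeR, 5 were at an unadjusted p under 0.05 and DESeq2 called 1. For all 12267 genes tested these counts were 6, 1229 and 116.

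Of 16 folate and one-carbon genes, which supply the formyl groups used by Gart and Atic, 15 were tested in footprints. Mthfd1, which makes formyl tetrahydrofolate, was the 1 called higher in wild-type cells (0.63, SE 0.142), with 0.32 (SE 0.142) in the knockout. Shmt1 (−0.48, SE 0.109) and Amt (−0.54, SE 0.107), of the serine and glycine reactions that feed the folate pool, were called lower in the knockout, where 0 were called higher. Their wild-type changes were 0.05 (SE 0.108) and −0.11 (SE 0.107). Shmt1 was also lower in treated knockout than in treated wild-type cells (−0.52, SE 0.110). The list's median difference between genotypes was −0.31, against 0.01 over all genes. By edgeR 0 of 15 were called in it, with 4 at an unadjusted p under 0.05 (1229 of the 12267 genes tested) and 0 called by DESeq2.

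Of 16 pyrimidine genes 15 were tested. Cad, the trifunctional enzyme that opens that route, was the 1 called higher in wild-type cells (0.81, SE 0.194), and 0 were called lower. Its change was 0.49, and not called, without untreated wild-type A and 1.22 without untreated wild-type B, and its call was lost in 6 of 8 fits that left out a library. In the knockout Tyms, the thymidylate synthase, was called higher (0.51, SE 0.137) and Dhodh, the mitochondrial dehydrogenase of the route, called lower (−0.74, SE 0.204). Their wild-type changes went the same way, 0.35 (SE 0.138) and −0.50 (SE 0.205), and were not called. The genotype differences were 0.16 (SE 0.194) and −0.24 (SE 0.290). Dtymk, the thymidylate kinase, was higher in treated knockout than in treated wild-type cells (0.73, SE 0.127). Untreated knockout cells also had more of it than untreated wild-type cells (0.37, SE 0.125), which was not called. Its treatment changes were −0.25 (SE 0.126) in wild-type and 0.12 (SE 0.125) in knockout cells. The median difference between genotypes was 0.16, and 0 of 15 were called in it by edgeR or DESeq2, with 1 at an unadjusted p under 0.05. In RNA 0 of 55 genes of the 3 lists were called by edgeR, at an unadjusted p under 0.05 or by DESeq2. In translational efficiency edgeR called 0 of 56, with 12 at an unadjusted p under 0.05 and 1 called by DESeq2. For all 12887 genes tested these counts were 190, 1836 and 435. Of the 17 calls named from these lists, that of Dck in the knockout was the only one kept in all 8 fits that left out a library, in a check added after the data were seen. The wild-type calls of Nt5c2, Rrm1, Mthfd1 and Cad were each lost without untreated wild-type A, treated wild-type B or either treated knockout library. Those of Nt5c2 and Rrm1 were also lost without treated wild-type A, that of Nt5c2 without untreated wild-type B, and that of Cad without either untreated knockout library. In the knockout, the calls of Nme1, Nme2, Shmt1 and Dhodh were lost without any single knockout library, and those of Itpa, Amt and Tyms without either treated one. Those of Itpa, Tyms and Prps2 were also lost without untreated B, untreated A and untreated A, respectively, and that of Prps2 without treated B. Between treated genotypes, the 4 calls of Dck, Guk1, Shmt1 and Dtymk were lost without either treated knockout library. That of Guk1 was also lost without either treated wild-type library, that of Shmt1 without treated wild-type A and that of Dtymk without treated wild-type B.

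Genes with the footprint pattern most like that of Atic were found by Pearson correlation of log2 CPM over the 8 libraries. The 4753 genes compared were non-members with a mean log2 CPM of 5 or more. Predicted genes and pseudogenes, recognised by name (Gm and a digit, Rik or -ps), were left out. The 5 with the highest r were Acsf2 (r = 0.984), Prmt5 (0.977), Sipa1l3 (0.975), Msn (0.974) and Cbl (0.970). The values are a description over 4 groups of 2 libraries that share the same depths, and Spearman's rho for the 5 was 0.69 (Msn) to 0.95 (Cbl). Their knockout changes were −0.92 for Acsf2, −0.55 for Prmt5, −0.58 for Sipa1l3, −1.86 for Msn and −0.28 for Cbl, and their wild-type changes 0.08 to 0.18. Acsf2 encodes a mitochondrial acyl-CoA synthetase, Prmt5 an arginine methyltransferase, Msn the cytoskeletal linker moesin and Cbl a ubiquitin ligase. Among the other 8 tested members r with Atic ran from −0.22 for Impdh2 to 0.47 for Gart. By rank, Gart had a rho of 0.81 with Atic, as did Sipa1l3, and the remaining members had −0.05 to 0.43. The 5 genes were picked for their r, so a higher r than that of the members is no finding.

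The members lie apart in the genome, except for Ppat and Paics. In GRCm38.p6, Atic is on chromosome 1 from 71557156 to 71579403, Ppat and Paics on chromosome 5 from 76913249 to 76951578 and from 76951302 to 76967509, and Gart on chromosome 16 from 91621395 to 91646972. Pfas is on chromosome 11 from 68985701 to 69008460, Adsl on chromosome 15 from 80948490 to 80970947 and Gmps on chromosome 3 from 63963633 to 64021554. Impdh1 is on chromosome 6 from 29200436 to 29216364 and Impdh2 on chromosome 9 from 108560436 to 108565577. Gmps overlaps Slc33a1 by 1101 bases and Adsl the pseudogene Gm6612 by 541 bases, and Ppat spans the long non-coding RNA LOC115486295. Pfas overlaps the microRNA Mir3062 by 105 bases and the small nuclear RNA Gm25819 by 108 bases, so the counts of these members carry the same limit on strand as those of Ppat and Paics. No such overlap with another gene was annotated for Atic.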

How the data were processed

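Ribosome-protected fragments (8 libraries) and poly(A) RNA (4 libraries) had been sequenced. The authors deposited raw counts per gene symbol, 1 table per assay. Per the submitters' processing notes, the tools were HISAT2 2.1.0, cutadapt and CASAVA 1.4, on build mm10. The counting tool, annotation, strand setting and treatment of shared reads were not given in the sources used here. One column, treated knockout replicate B, was assigned from its title's letter, since its description repeats that of replicate A, and this group's values by letter rest on it.

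Gene tests used edgeR 4.0.16 (R 4.3.3): filterByExpr with a minimum count of 10, TMM scaling, a robust quasi-likelihood fit, two-sided tests and Benjamini-Hochberg adjustment over all genes tested. One fit by group took all 8 footprint libraries (4 residual degrees of freedom), another the 4 RNA libraries (2), and the last, over the wild-type libraries of both assays, gave translational efficiency as an assay by treatment interaction. SEs came from the log2 change and its F statistic. The scripts were tested on simulated data. Alternatives (for the named list genes, chosen after seeing the data) were RLE scaling, no filter, DESeq2 1.42.0, the replicate letter as a block, each library left out, and groups fitted alone. The members and lists were chosen with earlier results of these data known. The text names all members, every called gene of the 3 lists, and the 5 genes most like Atic. Between footprint and RNA tables, 20050 of 22034 symbols joined as written and 83 by synonym. Coding lengths were not used, so count shares and footprint-to-RNA ratios carry the length differences between genes. The labels call replicates biological, without naming separate cultures, so p-values measure the spread between these libraries.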

Additional observations from a re-analysis of the deposited data

Results flagged for a closer look

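The footprint change of Atic in the knockout less that in wild-type cells was −1.16 on the log2 scale. It is listed because this difference between the genotypes passed the threshold over all genes, but the set was chosen on this contrast, so the value is a description and not a test. The threshold was missed in 6 of the 8 fits that left out a library.

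A signal lay in a row outside the comparisons of the members, that of the pseudogene Impdh2-ps in RNA. It had a mean of 399.9 CPM in untreated and 402 CPM in treated wild-type libraries, above the level that 3 counts allow in each library, and the footprint table held no row of that name.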

How the results depend on the processing

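The members called in wild-type cells (1, Pfas) were 2 by DESeq2 (Pfas and Paics), 0 with that genotype fitted alone, and 0 to 1 without each library in turn. The knockout call of Atic was kept with RLE scaling, no filter, DESeq2, the replicate block and that genotype fitted alone. Its change lay between −1.015 and −0.8181 when each library was left out in turn. This change enters the contrast on which the set was chosen, so it is a description only. In the genotype difference the count was 1 with RLE scaling, no filter, DESeq2 and the replicate block, and 0 to 1 without each library, where Atic ranged from −1.27 to −1.07; with the replicate block it was −1.16. The treated difference between genotypes gave 0 to 1, with 0 without treated knockout B, and RNA gave 0 to 1. For translational efficiency the count of 0 became 3 with the replicate block and 0 to 2 without each library. Where leaving out a library left 1 in a group, that library was assumed to vary like the other groups. Of 752 member values under alternatives, 706 kept their sign. Calls over all genes moved by more than 1.5 times under several settings: in the genotype difference from 6 to 116 (DESeq2), 192 (no filter), 39 (block), 0 without any single knockout library and 3 to 32 without a wild-type one; in wild-type cells from 599 to 1048 (no filter), 931 (block), 19 (fitted alone) and as few as 197 without a library; in the knockout from 1089 to 1658 (no filter), 1893 (fitted alone) and as few as 215. They moved from 464 to 1228 (no filter), 783 (DESeq2), 916 (block), 829 (fitted alone) and 6 to 729 (1 library left out) between treated genotypes, and from 1 to 113 (no filter), 31 (DESeq2), 14 (block) and up to 10 between untreated ones. In RNA 26 became 8 (DESeq2), 16 (block) and 14 to 267, and for translational efficiency 190 became 459 (no filter), 435 (DESeq2), 1561 (block) and 0 to 671. The cause was not tested. The labels name no common batch, so the main fits did not pair libraries by letter. With only 2 letters, whether libraries of the same letter shared a batch is not known. The A minus B deviations correlated by 0.49 between wild-type footprint groups and 0.101 between knockout ones, and by 0.0147 between RNA groups. Of the 17 named list calls, those of Nt5c2, Rrm1, Mthfd1 and Cad were lost with wild-type cells fitted alone and that of Guk1 with RLE scaling. Depth limits Ppat, with 191 footprints in treated wild-type A, and leaves Hprt untested.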

Other observations

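The ratio of footprint to RNA CPM in untreated wild-type cells was computed for the 9 members with footprints, with no correction for coding or transcript length. It was 12.2 for Impdh2, 0.0808 for Ppat, and 0.461 to 1.23 for the other 7, and part of these differences can be length. The Impdh2 value rests on the RNA row whose counts stand beside those of Impdh2-ps, and Ppat shares part of its span with Paics.

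Of the raw footprint counts on the 6 enzymes to IMP, the share on Paics was higher in treated cells. In each genotype both treated libraries lay above both untreated ones. The Paics share was 43.2% (A) and 39.2% (B) in untreated and 48.1% (A) and 47.1% (B) in treated knockout cells. In wild-type cells it was 42.2%, 41.5%, 44.7% and 43.2% in the same order. The share of Pfas was 9.77% (A) and 10.4% (B) in untreated and 12% (A) and 13.5% (B) in treated knockout cells. It also rose in wild-type cells, from 9.55% (A) and 10.7% (B) to 12.1% (A) and 11.8% (B). These shares sum with that of Atic within a library, so a fall in one raises the others.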
